A study of Mus musculus with 80 samples.

Results

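The 10 genes described here, Glul, Cyp2e1, Cyp1a2, Axin2, Oat, Slc1a2, Rhbg, Lgr5, Tbx3 and Rnf43, mark the hepatocytes around the central vein of the liver lobule or report Wnt signalling in them. They were chosen by name as a fixed list, with earlier results of these data known, and all 10 were rows of both deposited gene tables, which list 18877 genes for the DEHP study and 17672 for the DCA study. Blood enters the lobule at the portal tracts and leaves at the central vein, and hepatocytes divide their work along that path. Endothelial cells of the central vein release Wnt ligands and R-spondins. These keep beta-catenin stable in the nearest hepatocytes, where it works with TCF factors to switch on the pericentral programme. That programme covers the capture of ammonia as glutamine and the oxidation of drugs and solvents by cytochromes P450.

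Liver RNA was sequenced from male mice of the hybrid strain B6C3F1, labelled as 4 weeks old, in a pair of studies. In the first, 16 mice ate feed with di(2-ethylhexyl) phthalate (DEHP, a plasticizer) at 0, 1500, 3000 or 6000 ppm for 7 days, 4 mice per dose, and tissue was collected in 2013. In the second, 24 mice drank water with dichloroacetic acid (DCA, which forms when water is chlorinated) at 0, 1, 2 or 3.5 g/L, 6 mice per dose, with tissue collected in 1994. The length of the DCA exposure is not in the labels. Every animal gave 1 formalin-fixed, paraffin-embedded (FFPE) library and 1 frozen library. Frozen tissue came from mixed lobes. FFPE tissue came from the left lateral, caudate and right medial lobes in the DEHP study and from the left lateral and right medial lobes in the DCA study, so preparation and lobe cannot be told apart.

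Library totals were 11673020 to 18866126 counts in DEHP FFPE, 16582972 to 29550624 in DEHP frozen, 109292 to 8434617 in DCA FFPE and 3067666 to 16890024 in DCA frozen libraries. In the DCA FFPE libraries the ribosomal RNA row Rn45s held 4.89% to 84.2% of all counts. Sequencing run and lane are inferred from the column headers of the deposited counts, which hold a code and an L number without naming either. Under code V18431 the L numbers reach 11, so they may not be lanes there. By these headers all 6 DCA frozen controls were in lane 5 of one run and all 6 frozen livers at 3.5 g/L in lane 4. Frozen livers at 2 g/L were in lanes 3 and 4. Those at 1 g/L were in lane 6 or under code V18431, except animal 49 in lane 5. Against the controls the effects of lane and of dose cannot be told apart at any dose, as animal 49 alone shared their lane. In the DEHP study 14 of 16 FFPE libraries resembled the frozen library of their own animal most among animals of the same dose, over 9327 genes. The exceptions were animals 35A and 67C at 3000 ppm, each of which resembled the other. The defining hepatocyte genes were abundant in every frozen group: the 6 hepatocyte markers summed to at least 65520 CPM (counts scaled to a common library depth, by TMM). These are bulk tissue data, in which fewer pericentral cells and less RNA per pericentral cell cannot be told apart.

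In the GENCODE M21 annotation of GRCm38 (mm10) all 10 are protein-coding genes. Glul lies at chr1:153899944-153909723 on the plus strand, Slc1a2 at chr2:102658659-102790784 (plus), Rhbg at chr3:88242874-88254709 (minus) and Tbx3 at chr5:119670669-119684724 (plus). Oat, at chr7:132557478-132576398 (minus), and Cyp2e1, at chr7:140763739-140774987 (plus), share a chromosome. Cyp1a2 lies at chr9:57676937-57683703 (minus), Lgr5 at chr10:115450311-115587780 (minus), Rnf43 at chr11:87662722-87735539 (plus) and Axin2 at chr11:108920349-108950783 (plus).

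RefSeq start regions on GRCm38.p6, 250 bases before to 50 bases after a transcription start, were at hand for 7 of the genes. They were searched on both strands for CTTTGA, the core of the site that TCF and LEF factors bind, and for GCGTG, the core of the site of the aryl hydrocarbon receptor (AhR). Of 32851 such windows, 16.0% held CTTTGA and 32.4% held GCGTG, and no match of one overlapped a match of the other in these genes. Cyp1a2, Cyp2e1 and Slc1a2 each held CTTTGA, and these are shown as the windows that hold it. All of them fell in DCA livers, as did Axin2, Oat and Rnf43, whose windows lack it. Capitals mark the core or its reverse complement.
Cyp1a2 (chr9:57683606-57683905, minus strand): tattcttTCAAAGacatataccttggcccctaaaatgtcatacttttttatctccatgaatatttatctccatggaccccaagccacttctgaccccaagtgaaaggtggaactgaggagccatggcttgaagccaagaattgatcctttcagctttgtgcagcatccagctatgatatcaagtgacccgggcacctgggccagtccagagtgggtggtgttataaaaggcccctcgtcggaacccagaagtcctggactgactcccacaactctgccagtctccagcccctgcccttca
Cyp2e1 (chr7:140763569-140763868, plus strand): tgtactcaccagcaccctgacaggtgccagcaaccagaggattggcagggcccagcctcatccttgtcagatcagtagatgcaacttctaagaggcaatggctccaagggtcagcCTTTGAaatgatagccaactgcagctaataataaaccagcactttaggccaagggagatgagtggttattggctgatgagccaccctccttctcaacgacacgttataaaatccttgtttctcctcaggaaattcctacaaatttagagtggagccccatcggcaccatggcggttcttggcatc
Slc1a2 (chr2:102706188-102706487, plus strand): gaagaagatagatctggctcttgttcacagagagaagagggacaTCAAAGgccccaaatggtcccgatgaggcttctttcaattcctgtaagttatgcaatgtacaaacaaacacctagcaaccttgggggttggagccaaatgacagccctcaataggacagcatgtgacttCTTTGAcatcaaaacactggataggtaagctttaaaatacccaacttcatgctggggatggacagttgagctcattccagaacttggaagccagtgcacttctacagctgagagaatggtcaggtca
The marked letters lie 243 bases before the start in Cyp1a2, 135 bases before it in Cyp2e1, and 206 and 77 bases before it in Slc1a2, whose RefSeq start lies inside the gene, downstream of the start in the annotation above. The windows of Axin2, Glul, Oat and Rnf43 held no such core, and GCGTG was found in 1 Rnf43 window, 71 bases before its start. A match is a string of letters and no measured site of binding.

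Levels per length, as the authors' FPKM (fragments scaled by gene length and library depth), put Cyp2e1 far above the rest in frozen control livers, at 2197 ± 651 FPKM in the DEHP study (SD, n = 4) and 2470 ± 348 FPKM in the DCA study (SD, n = 6). In DEHP controls Glul followed at 221 ± 14.8 FPKM, then Oat at 153 ± 37.2 FPKM and Cyp1a2 at 100.1 ± 29.3 FPKM. Oat and Cyp1a2 overlapped. Slc1a2 reached 15.2 ± 2.45 FPKM there, and the remaining genes lay between 1.66 FPKM for Axin2 and 5.35 FPKM for Rnf43. In DCA controls Cyp1a2 stood second, at 341 ± 56.5 FPKM, followed by Glul at 230 ± 12.2 FPKM and Oat at 187 ± 23.8 FPKM, and only the neighbours Glul and Oat among these overlapped. Slc1a2 reached 23.9 ± 1.93 FPKM, and the others ran down from 7.90 FPKM for Rnf43 through 6.71 FPKM for Rhbg, 4.66 FPKM for Tbx3 and 2.42 FPKM for Axin2 to 1.16 FPKM for Lgr5. The authors normalised the tables of the studies separately, so levels were not compared between them. The enzyme genes Cyp2e1, Cyp1a2, Glul and Oat were thus the abundant ones. The Wnt reporters Axin2, Lgr5, Tbx3 and Rnf43 all averaged less than Slc1a2 in both studies. The transporter gene Rhbg lay among these reporters, at 2.56 FPKM in DEHP and 6.71 FPKM in DCA controls.

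Most of the set was lower in frozen livers at 2 and 3.5 g/L DCA than in controls. At 1 g/L, 5 of the 10 genes fell against 0 g/L (adjusted p under 0.05, edgeR), at 2 g/L 6 fell and at 3.5 g/L 7 fell, and none rose at any dose. The background was high: 11.1% of all genes tested were called at 1 g/L, 29.2% at 2 g/L and 43.0% at 3.5 g/L, in either direction. The median log2 fold change of the 10 genes was -0.40 at 1 g/L, -0.56 at 2 g/L and -0.41 at 3.5 g/L, where the median over all genes tested was -0.012, -0.0056 and -0.016. Groups at 1, 2 and 3.5 g/L did not overlap the controls for 3, 5 and 4 of the 10 genes, in either direction, against 3.96%, 11.4% and 20.7% of all genes tested.

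Among the cytochromes P450, Cyp1a2, which oxidises caffeine and aromatic amines and is induced through the AhR, fell the most. Its 6 libraries ran from 462 CPM with a median of 641 to 751 CPM at 0 g/L, from 415 (median 494) to 559 CPM at 1 g/L, from 224 (287) to 311 CPM at 2 g/L and from 190 (237) to 285 CPM at 3.5 g/L. All livers at 2 and 3.5 g/L lay below every control, while those at 1 g/L overlapped them. The log2 fold changes against 0 g/L were -0.36 ± 0.10 (SE, adjusted p = 0.0288) at 1 g/L, -1.17 ± 0.11 (adjusted p = 1.46e-08) at 2 g/L and -1.38 ± 0.11 (adjusted p = 2.84e-10) at 3.5 g/L. The slope on dose was -0.42 ± 0.04 log2 units per g/L (adjusted p = 2.46e-09). Cyp2e1, which oxidises ethanol, acetone and small solvents, ran from 3353 (median 4203) to 4692 CPM at 0 g/L, from 2841 (3539) to 3855 CPM at 1 g/L, from 2197 (2667) to 2872 CPM at 2 g/L and from 2993 (3404) to 3709 CPM at 3.5 g/L. The lowest group was 2 g/L, and only that group lay wholly below the controls. Its log2 fold changes were -0.25 ± 0.09 (adjusted p = 0.0691) at 1 g/L, -0.67 ± 0.09 (adjusted p = 4.28e-06) at 2 g/L and -0.29 ± 0.09 (adjusted p = 0.0105) at 3.5 g/L, and its slope on dose missed the threshold (adjusted p = 0.0501; 0.0400 by DESeq2). Left without one library, that slope was called in 11 of 24 fits, with libraries 7, 49, 53, 74 to 77, 97 and 100 to 102 the ones left out. The 1 g/L difference of Cyp2e1 was called without control 7 (adjusted p = 0.0296) or 8 (0.0498).

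The genes of nitrogen handling divided. Glul, glutamine synthetase, which joins ammonia to glutamate in the last hepatocytes before the central vein, was not called at any dose. Its libraries ran from 593 (median 658) to 695 CPM at 0 g/L, from 509 (577) to 681 CPM at 1 g/L, from 518 (627) to 735 CPM at 2 g/L and from 545 (662) to 736 CPM at 3.5 g/L. All treated groups overlapped the controls, and at 3.5 g/L the log2 difference was 0.03 ± 0.09 (adjusted p = 0.824). Slc1a2, which encodes the glutamate transporter GLT-1 and brings glutamate into these cells, had 125 (median 137) to 155 CPM at 0 g/L, 86.0 (102) to 116 CPM at 1 g/L, 73.6 (87.5) to 98.8 CPM at 2 g/L and 86.3 (105) to 124 CPM at 3.5 g/L. Every treated liver lay below every control. Its log2 fold changes were -0.45 ± 0.09 (adjusted p = 0.00254) at 1 g/L, -0.68 ± 0.09 (adjusted p = 3.26e-06) at 2 g/L and -0.40 ± 0.09 (adjusted p = 0.000656) at 3.5 g/L. Rhbg, an ammonium transporter of the Rhesus family, likewise lay below every control in all 18 treated livers, with 11.5 (median 12.3) to 14.1 CPM at 0 g/L, 6.79 (9.01) to 10.96 CPM at 1 g/L, 5.32 (7.20) to 9.19 CPM at 2 g/L and 5.64 (6.97) to 10.4 CPM at 3.5 g/L. It fell by 0.49 ± 0.13 (adjusted p = 0.0213), 0.74 ± 0.15 (adjusted p = 0.000449) and 0.76 ± 0.14 (adjusted p = 7.57e-05) on the log2 scale at 1, 2 and 3.5 g/L. Oat, ornithine aminotransferase, which feeds ornithine into glutamate, fell by 0.44 ± 0.10 on the log2 scale at both 1 g/L (adjusted p = 0.00791) and 2 g/L (adjusted p = 0.00162). At 3.5 g/L it averaged 358 ± 25.3 CPM, against 398 ± 51.8 CPM in controls (SD, n = 6 each), a log2 difference of -0.15 ± 0.10 that was not called (adjusted p = 0.22).

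Among the Wnt reporters, Axin2, a scaffold of the beta-catenin destruction complex that is itself a target of the pathway, changed by nearly the same amount at all doses. It had 7.56 (median 10.6) to 12.7 CPM at 0 g/L, 4.68 (6.09) to 6.57 CPM at 1 g/L, 5.26 (5.80) to 6.92 CPM at 2 g/L and 4.45 (6.26) to 6.99 CPM at 3.5 g/L. All 18 treated livers lay below all 6 controls. The log2 fold changes were -0.82 ± 0.12 (adjusted p = 0.000188), -0.82 ± 0.13 (adjusted p = 4.3e-05) and -0.81 ± 0.12 (adjusted p = 8.85e-06) at 1, 2 and 3.5 g/L. Rnf43, a ubiquitin ligase that removes Wnt receptors and is itself a Wnt target, was called at 3.5 g/L (log2 fold change -0.50 ± 0.16, adjusted p = 0.0118), with log2 differences of -0.29 ± 0.16 (adjusted p = 0.228) at 1 g/L and -0.42 ± 0.16 (adjusted p = 0.0554) at 2 g/L. Its 14.7 to 22.7 CPM at 3.5 g/L overlapped the 14.6 to 34.2 CPM of the controls through 1 low control. Lgr5, an R-spondin receptor of pericentral hepatocytes, averaged 5.55 ± 1.46 CPM at 0 g/L, 7.48 ± 1.82 CPM at 1 g/L, 4.33 ± 0.556 CPM at 2 g/L and 4.16 ± 0.690 CPM at 3.5 g/L (SD, n = 6 each), with overlap throughout. Its call at 3.5 g/L (log2 fold change -0.42 ± 0.17, adjusted p = 0.0493) was the weakest of the 7. It held in 13 of 24 fits that left out 1 library and in 3 of 7 other settings, being lost in the other raw count tables (adjusted p = 0.31), without the filter (0.0622), with the groups compared alone (0.0635) and without lane 3 (0.0544). The libraries without which it was lost were 5, 6 and 8 at 0 g/L, 52 and 53 at 1 g/L, 73 and 78 at 2 g/L and 97, 99, 100 and 101 at 3.5 g/L, with adjusted p up to 0.17. Leaving out control 6 or animal 50, or taking the other raw count tables, made its higher level at 1 g/L pass the test (adjusted p = 0.0355, 0.0345 and 0.0377). Tbx3, a transcription factor of the pericentral programme, was not called at any dose: it averaged 22.98 ± 8.03 CPM at 0 g/L, 16.8 ± 3.58 CPM at 1 g/L, 17.3 ± 4.30 CPM at 2 g/L and 20.0 ± 4.51 CPM at 3.5 g/L. Control 4 was the lowest control for both Tbx3 (9.76 CPM) and Rnf43 (14.6 CPM). Without it Tbx3 fell at 1 g/L (adjusted p = 0.0354) and 2 g/L (0.0251), and Rnf43 fell at 1 g/L (0.0324) and 2 g/L (0.00254). Rnf43 was also called at 2 g/L without 49, 50, 78 or 99 (0.0398 to 0.0487).

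**Figure D1:**
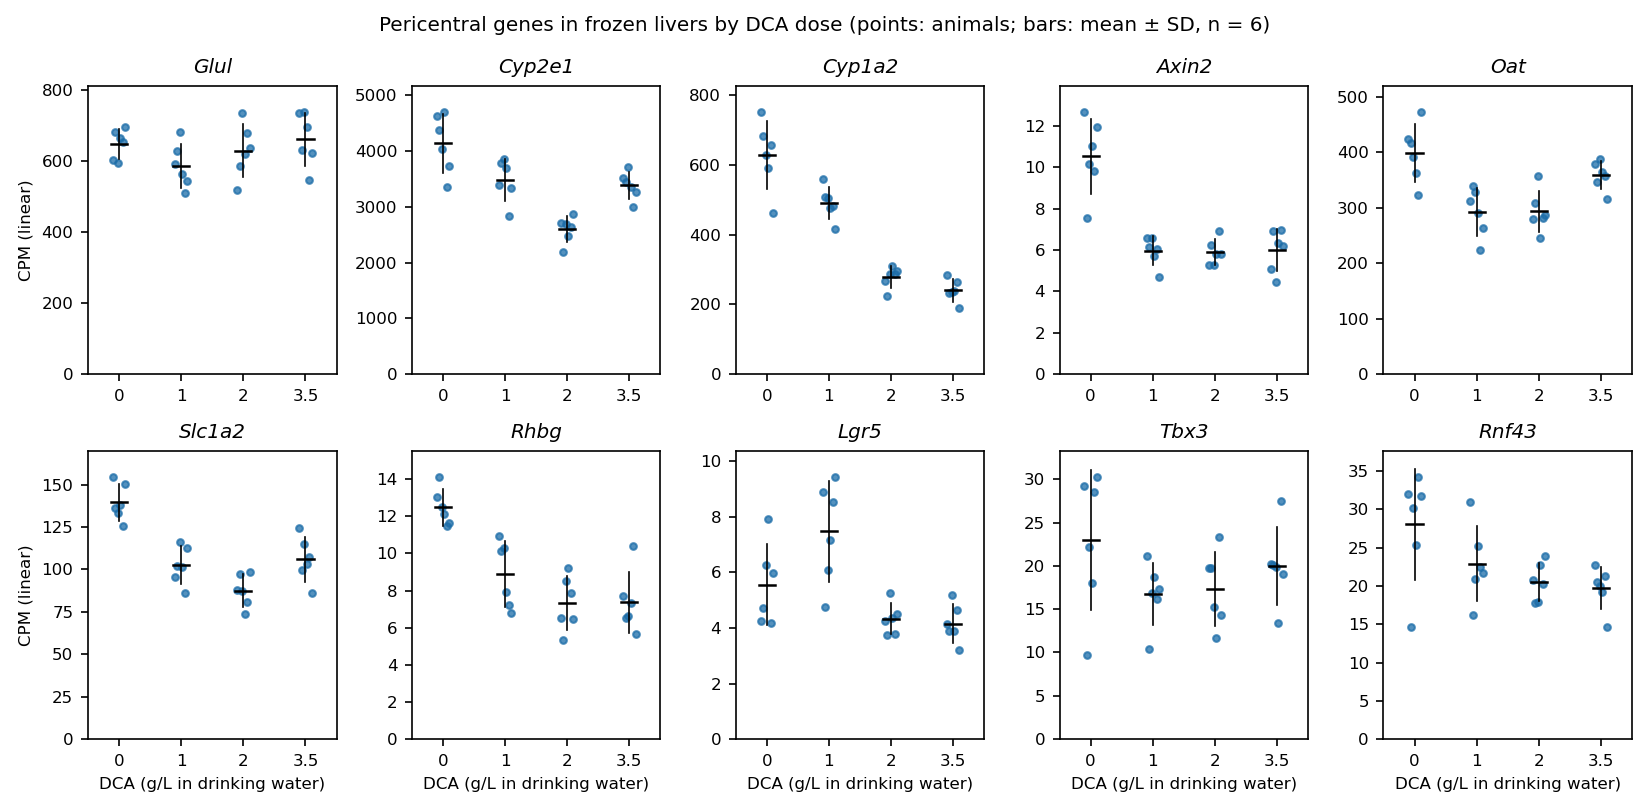
CPM (linear axis) of the 10 genes in frozen livers by DCA dose in g/L. Points are animals, and bars give the mean ± SD of 6. All treated livers lie below all controls for Axin2, Slc1a2 and Rhbg, Cyp1a2 is lowest at 3.5 g/L, Cyp2e1 is lowest at 2 g/L, and Glul overlaps the controls at every dose.

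A linear slope on DCA dose was called for 6 of the 10 genes, all downward: Cyp1a2, Axin2, Slc1a2, Rhbg, Lgr5 and Rnf43 (39.3% of all genes had a slope called). That of Lgr5 was not called in the other raw count tables (adjusted p = 0.104). Within run W48315, which leaves 22 libraries without animals 53 and 54, 2 of the 10 genes were called at 1 g/L in place of 5: Axin2 and Slc1a2 kept their calls, and Cyp1a2 (adjusted p = 0.15), Oat (0.0659) and Rhbg (0.16) lost them. The 1 g/L calls of Cyp1a2 and Rhbg also rested on single libraries. That of Cyp1a2 was lost without control 3 or 4 or without 51, 52, 53 or 54 (adjusted p 0.0501 to 0.0859), and that of Rhbg without 52, 53 or 54 (0.05002 to 0.0581).

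The order of the groups by dose was broken by several genes, so 3.5 g/L was set against 2 g/L, a comparison chosen after the values were seen. Of the 10 genes, 2 were higher at 3.5 g/L than at 2 g/L, where 11.2% of all genes were called. Cyp2e1 averaged 3380 ± 242 CPM at 3.5 g/L and 2599 ± 234 CPM at 2 g/L (SD, n = 6 each; log2 fold change 0.38 ± 0.09, adjusted p = 0.00772), and the groups did not overlap. Slc1a2 averaged 106 ± 13.1 CPM at 3.5 g/L and 87.5 ± 9.61 CPM at 2 g/L (0.28 ± 0.09, adjusted p = 0.0404). Oat moved by 0.29 ± 0.10 without passing the test (adjusted p = 0.0601). Within lane 4, which held all 6 livers at 3.5 g/L and 3 of those at 2 g/L, the Cyp2e1 difference was 0.34 (adjusted p = 0.0561) and that of Slc1a2 0.33 (adjusted p = 0.12); neither was called. The other 3 livers at 2 g/L were the shallow libraries of lane 3, and without them the adjusted p was 0.0605 for Cyp2e1 and 0.0778 for Slc1a2. The call of Slc1a2 was also lost without 73, 75, 76 or 77 at 2 g/L or without 97, 98, 100, 101 or 102 at 3.5 g/L (adjusted p 0.0534 to 0.121). Oat was called within lane 4 (0.40, adjusted p = 0.0209) and without control 7, animal 53 or animal 75 (0.0495, 0.0401 and 0.0327). In the same contrast 5 of 14 further pericentral genes rose and 5 of 8 Kupffer cell markers fell.

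The Wnt lists held calls in both directions at 3.5 g/L DCA, where 43.0% of all genes were called, and their counts are given beside that share without being read as particular to the pathway. Of 5 tested genes for ligands and their release only Porcn, which attaches lipid to Wnt proteins, was called, at a log2 fold change of -0.85 ± 0.21 (adjusted p = 0.00226). The ligands of the central vein were not called there: Wnt2 at 0.18 ± 0.19 (adjusted p = 0.467), Wnt9b at -0.41 ± 0.31 (adjusted p = 0.292) and the R-spondin Rspo3 at 0.29 ± 0.17 (adjusted p = 0.154). At 2 g/L, where 29.2% of all genes were called, Wnt9b was lower, at 0.709 ± 0.428 CPM, against 1.62 ± 0.656 CPM in controls (log2 fold change -1.20 ± 0.37, adjusted p = 0.0154). The frozen libraries of that dose in lane 3 held only 3067666 to 3854951 counts, so few counts lie behind their values. Of 9 receptor genes 2 rose and 3 fell, among them Lrp6, a Wnt coreceptor (0.37 ± 0.08, adjusted p = 0.000384), and Fzd8, a frizzled receptor (-1.36 ± 0.22, adjusted p = 2.16e-05). In the destruction complex, which marks beta-catenin for degradation, 3 of 7 rose and 1 fell. Its kinases Gsk3b (0.51 ± 0.06, adjusted p = 3.63e-07) and Csnk1a1 (0.29 ± 0.06, adjusted p = 0.000206) were among those that rose. Of 7 genes for beta-catenin and its nuclear partners 1 rose and 3 fell: Tcf7l2, the main TCF factor of hepatocytes, rose by 0.43 ± 0.12 (adjusted p = 0.00561), while Ctnnb1, beta-catenin itself (-0.22 ± 0.05, adjusted p = 0.000986), and the coactivator Bcl9l (-0.91 ± 0.20, adjusted p = 0.000892) fell. Of 5 feedback genes Znrf3, the close relative of Rnf43, rose (0.37 ± 0.11, adjusted p = 0.00704) and Notum, a secreted Wnt inhibitor, fell (-0.60 ± 0.17, adjusted p = 0.00713).

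Other zonated genes moved as well, in the contrast where 43.0% of all genes were called. Of 14 further pericentral genes, 3 rose and 7 fell at 3.5 g/L, with a median log2 fold change of -0.52, and Slc13a3, a dicarboxylate transporter (-1.86 ± 0.17, adjusted p = 3.47e-09), and Gulo, which makes vitamin C (-0.75 ± 0.08, adjusted p = 2.84e-08), had the smallest adjusted p. Ahr, counted in that list, was at -0.03 ± 0.16 (adjusted p = 0.877). Of 12 periportal genes 1 rose and 7 fell, with a median of -0.37. They included Pigr, the polymeric immunoglobulin receptor (-1.56 ± 0.12, adjusted p = 3.64e-10), Cdh1, E-cadherin (-0.62 ± 0.08, adjusted p = 1.67e-06), and Cps1, which starts the urea cycle (-0.56 ± 0.09, adjusted p = 3.88e-05), while Gls2, the liver glutaminase, was at 0.06 ± 0.12 (adjusted p = 0.684). Genes of both ends of the lobule thus fell in the contrast in which 7 of the 10 fell. Of 4 AhR targets tested, 2 rose, Nqo1 (1.39 ± 0.19, adjusted p = 2.15e-06) and Tiparp (0.52 ± 0.10, adjusted p = 0.000228), and Cyp1a1, the closest relative of Cyp1a2, was at -0.74 ± 0.37 (adjusted p = 0.106). In glutamate, ornithine and ammonia handling 3 of 10 rose and 3 fell, with Got2, a mitochondrial aminotransferase (0.28 ± 0.05, adjusted p = 7.03e-05), and Otc of the urea cycle (-0.46 ± 0.10, adjusted p = 0.000496) foremost.

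Markers of cell types moved in the same contrast, where 43.0% of all genes were called. Of 6 hepatocyte markers 4 fell and 1 rose at 3.5 g/L. On the log2 scale Tf, transferrin, fell by 1.31 ± 0.11 (adjusted p = 8.75e-10), Apoa1 by 0.98 ± 0.10 (adjusted p = 5.06e-08) and Alb, albumin, by 0.45 ± 0.11 (adjusted p = 0.00166). Their summed level was 77550 to 100200 CPM at 3.5 g/L, against 110900 to 139700 CPM in controls. Kupffer cell markers fell in 7 of 8 cases, led by the complement genes C1qa (-0.96 ± 0.12, adjusted p = 7.05e-07) and C1qb (-0.82 ± 0.13, adjusted p = 1.11e-05), and summed to 125 to 186 CPM at 3.5 g/L, against 234 to 321 CPM in controls. Of 6 central vein endothelial markers, a list that shares Wnt2, Wnt9b and Rspo3 with the ligands, only Thbd fell at 3.5 g/L (-0.69 ± 0.22, adjusted p = 0.0147). They summed to 20.9 to 29.7 CPM at 3.5 g/L, against 24.9 to 38.2 CPM in controls. Of 7 sinusoidal endothelial markers 3 fell, with Gpr182 (-0.65 ± 0.10, adjusted p = 7.09e-06) and Stab2 (-0.36 ± 0.07, adjusted p = 0.000146) first. Of 7 stellate cell markers 5 fell, with Ecm1 (-0.46 ± 0.11, adjusted p = 0.00139) and Reln (-0.26 ± 0.07, adjusted p = 0.00331) first. Of 5 bile duct markers edgeR called 0, with 0 at an unadjusted p under 0.05 and 0 called by DESeq2. The 1 pancreatic gene that could be tested, Cela1, fell by 1.33 ± 0.17 (adjusted p = 9.71e-07). The part of these shifts in the falls of the 10 genes was not tested.

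Calls among the 10 genes under DEHP were about as frequent as among all genes. In frozen liver 1 of the 10 genes was called, Slc1a2 at 3000 ppm (where 14.7% of all genes were called), against 0 of 10 at 1500 ppm (6.48%) and 0 of 10 at 6000 ppm (11.8%). In FFPE liver the test called 0 of 10 at 1500 ppm (5.86% of all genes), at 3000 ppm (9.39%) and at 6000 ppm (12.4%). At an unadjusted p under 0.05 the frozen counts were 2, 3 and 2 and the FFPE counts 3, 1 and 1 at 1500, 3000 and 6000 ppm, and DESeq2 called 1 at 1500, 1 at 3000 and 1 at 6000 ppm in frozen and 1 at 1500, 1 at 3000 and 0 at 6000 ppm in FFPE livers. A slope on dose was called for 0 of 10 genes in frozen liver (2.61% of all genes; 2 genes at an unadjusted p under 0.05, DESeq2 0) and for 0 of 10 in FFPE liver (3.59%; 1 gene, DESeq2 0). Without animal 29B the slope was called for Slc1a2 in frozen liver (adjusted p = 0.0493) and for Lgr5 in FFPE liver (0.0355).

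Slc1a2, the glutamate transporter, had a lower mean at every DEHP dose in both preparations, and edgeR called 1 of these 6 differences. DESeq2 called 5 of the 6, at 1500 (adjusted p = 0.0266), 3000 and 6000 ppm (0.0461) in frozen liver and at 1500 (0.0477) and 3000 ppm (0.0466) in FFPE liver, and edgeR on the groups compared alone called 1500 ppm in frozen liver (0.0452). In frozen livers it had 117, 78.7, 80.0 and 95.2 CPM at 0 ppm, 52.1, 48.6, 56.4 and 72.6 CPM at 1500 ppm, 51.0, 50.8, 70.8 and 54.2 CPM at 3000 ppm and 85.2, 49.2, 69.3 and 37.9 CPM at 6000 ppm. Every liver at 1500 and 3000 ppm lay below every control, and 1 liver at 6000 ppm did not. The log2 differences were -0.69 ± 0.21 (adjusted p = 0.063), -0.71 ± 0.21 (adjusted p = 0.034) and -0.62 ± 0.21 (adjusted p = 0.0705). FFPE tissue gave -0.77 ± 0.27 (adjusted p = 0.104), -0.76 ± 0.27 (adjusted p = 0.0879) and -0.68 ± 0.27 (adjusted p = 0.107) at the same doses. The call at 3000 ppm was lost without control 32A, 63A or 75A or without 35A, 67C or 9A (adjusted p 0.0536 to 0.10), and with sequencing run as a term in the fit (adjusted p = 0.21). In the other direction, Slc1a2 was called in frozen liver at 1500 ppm without 29B (0.0422) or 8C (0.0340) and at 6000 ppm without 29B (0.0154), and in FFPE liver at 1500 ppm without 72B (0.0342). The preparations share animals, so the FFPE values are no independent repeat.

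The other genes did not pass the test at any DEHP dose, with log2 differences in frozen liver between -0.72 (Axin2 at 1500 ppm) and 0.17 (Cyp2e1 at 1500 ppm). Axin2 had 9.90, 6.72, 5.47 and 6.39 CPM at 0 ppm and 5.41, 3.94, 4.94 and 3.80 CPM at 3000 ppm, without overlap, and 8.11, 3.01, 6.17 and 7.06 CPM at 6000 ppm, within the range of the controls but for 1 liver. Its log2 difference was -0.72 ± 0.27 (adjusted p = 0.134) at 1500 ppm, -0.66 ± 0.27 (adjusted p = 0.117) at 3000 ppm and -0.23 ± 0.27 (adjusted p = 0.664) at 6000 ppm. At 3000 ppm 4 of the 10 genes did not overlap the controls in frozen liver and 2 in FFPE liver, against 19.9% and 13.2% of all genes tested. Beside Slc1a2 and Axin2 these were Lgr5 and Rnf43, which lay below all controls in both preparations, at log2 differences of -0.47 ± 0.26 (adjusted p = 0.237) and -0.47 ± 0.20 (adjusted p = 0.126) in frozen liver. Rnf43 was called there without animal 44A of the 6000 ppm group (adjusted p = 0.0378), and Lgr5 was called in FFPE liver at 6000 ppm without 29B (0.0467). Cyp1a2 had the lowest group mean at 6000 ppm, 123 ± 38.1 CPM, against 188 ± 50.5 CPM in controls (SD, n = 4 each; -0.61 ± 0.28, adjusted p = 0.171). Glul (-0.11 ± 0.11), Oat (0.08 ± 0.17), Cyp2e1 (-0.01 ± 0.19) and Rhbg (-0.03 ± 0.19) had small log2 differences at 6000 ppm in frozen liver, with adjusted p of 0.60 to 0.98. At that dose animal 44A was the lowest of its group for 7 of the 10 genes in frozen tissue: Axin2, Lgr5, Tbx3, Rnf43, Cyp1a2, Cyp2e1 and Glul. The share of all genes lowest in 44A was not computed, so this count is not read as particular to the 10. Tbx3 was at 8.95 CPM in that liver, against 22.6 to 27.7 CPM in the other livers of the dose.

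**Figure D2:**
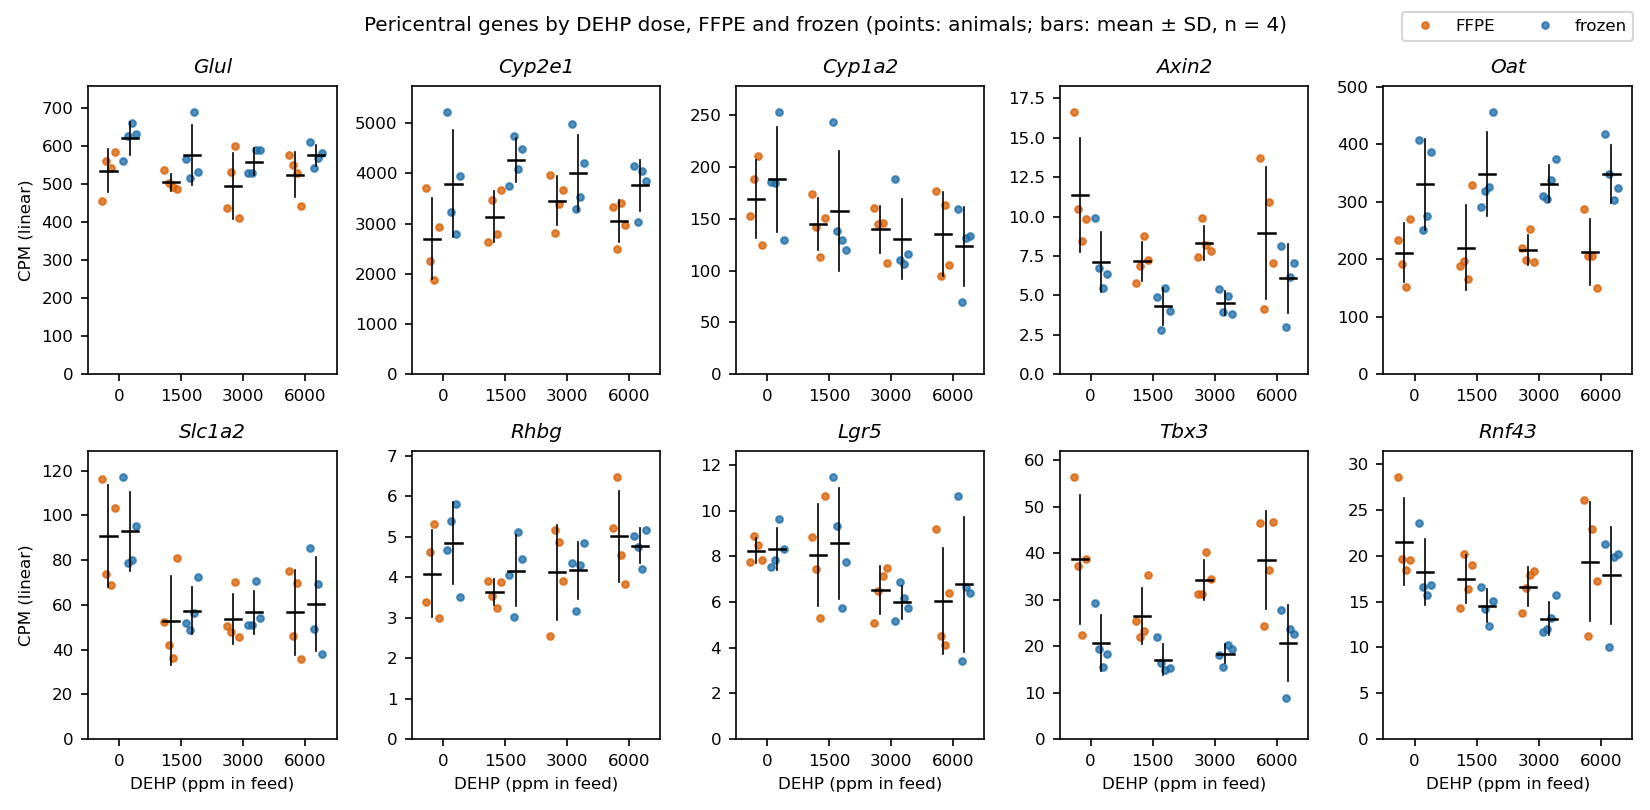
CPM (linear axis) of the 10 genes by DEHP dose in ppm, with FFPE livers in orange left of frozen livers in blue. Points are animals, and bars give the mean ± SD of 4. Slc1a2 averages 90.6 CPM (FFPE) and 92.8 CPM (frozen) at 0 ppm and 52.9 to 60.4 CPM in the treated groups of both preparations.

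In frozen liver at 6000 ppm DEHP 11.8% of all genes tested were called. The counts of the lists around the 10 genes are given beside that share and are not read as particular to a list. EdgeR called 0 of 5 ligand genes (0 at an unadjusted p under 0.05, DESeq2 0), 0 of 9 receptor genes (2, DESeq2 1) and 0 of 8 genes for beta-catenin and its partners (1, DESeq2 0). Wnt2 was at -0.16 ± 0.32 (adjusted p = 0.819), Wnt9b at 0.47 ± 0.42 (0.536), Rspo3 at -0.09 ± 0.21 (0.837), Ctnnb1 at -0.20 ± 0.09 (0.193) and Tcf7l2 at -0.03 ± 0.23 (0.959). In the destruction complex 1 of 7 genes, Apc, fell (-0.42 ± 0.08, adjusted p = 0.00364). Of 6 feedback genes 2 fell, both secreted Wnt inhibitors: Notum (-0.69 ± 0.18, adjusted p = 0.0215) and Wif1, which averaged 0.117 ± 0.138 CPM at 6000 ppm and 1.68 ± 0.953 CPM in controls (adjusted p = 0.00273). Znrf3 was at 0.16 ± 0.20 (adjusted p = 0.688). Of 14 further pericentral genes 2 rose, the cytochromes P450 Cyp3a11 (4.09 ± 0.55, adjusted p = 0.000155) and Cyp2c29 (1.91 ± 0.22, adjusted p = 4.35e-05), and 4 fell; Ahr was at 0.22 ± 0.22 (0.606). Of 12 periportal genes 6 fell and 0 rose, with a median log2 fold change of -0.73, led by Cps1 (-0.91 ± 0.15, adjusted p = 0.000865) and Gls2 (-0.91 ± 0.16, adjusted p = 0.00109). The median of the 10 genes in the same contrast was -0.068. Nqo1 was the 1 of 4 AhR targets that rose (1.71 ± 0.33, adjusted p = 0.00285), and in glutamate, ornithine and ammonia handling 1 of 10 rose, Got2 (0.38 ± 0.11, adjusted p = 0.0318), and 2 fell, with Otc (-0.47 ± 0.11, adjusted p = 0.00919) first.

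The cell type lists stand beside the same share, 11.8% of all genes called at 6000 ppm. Hepatocyte markers had 2 of 6 lower, Tf (-0.69 ± 0.18, adjusted p = 0.023) and Apoa1 (-0.55 ± 0.16, adjusted p = 0.0389), with Alb at -0.18 ± 0.16 (0.546). Sinusoidal endothelium had 1 of 7 higher, Oit3 (0.41 ± 0.12, adjusted p = 0.0311). Stellate cells had Col3a1 higher (0.77 ± 0.21, adjusted p = 0.0244) and Ecm1 lower (-0.74 ± 0.17, adjusted p = 0.0101) of 7. Cela1 of the pancreas fell (-0.99 ± 0.21, adjusted p = 0.00532). EdgeR called 0 of 6 central vein endothelial (0 at an unadjusted p under 0.05, DESeq2 0), 0 of 8 Kupffer (0, DESeq2 0) and 0 of 4 bile duct markers (1, DESeq2 0).

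**Figure D3:**
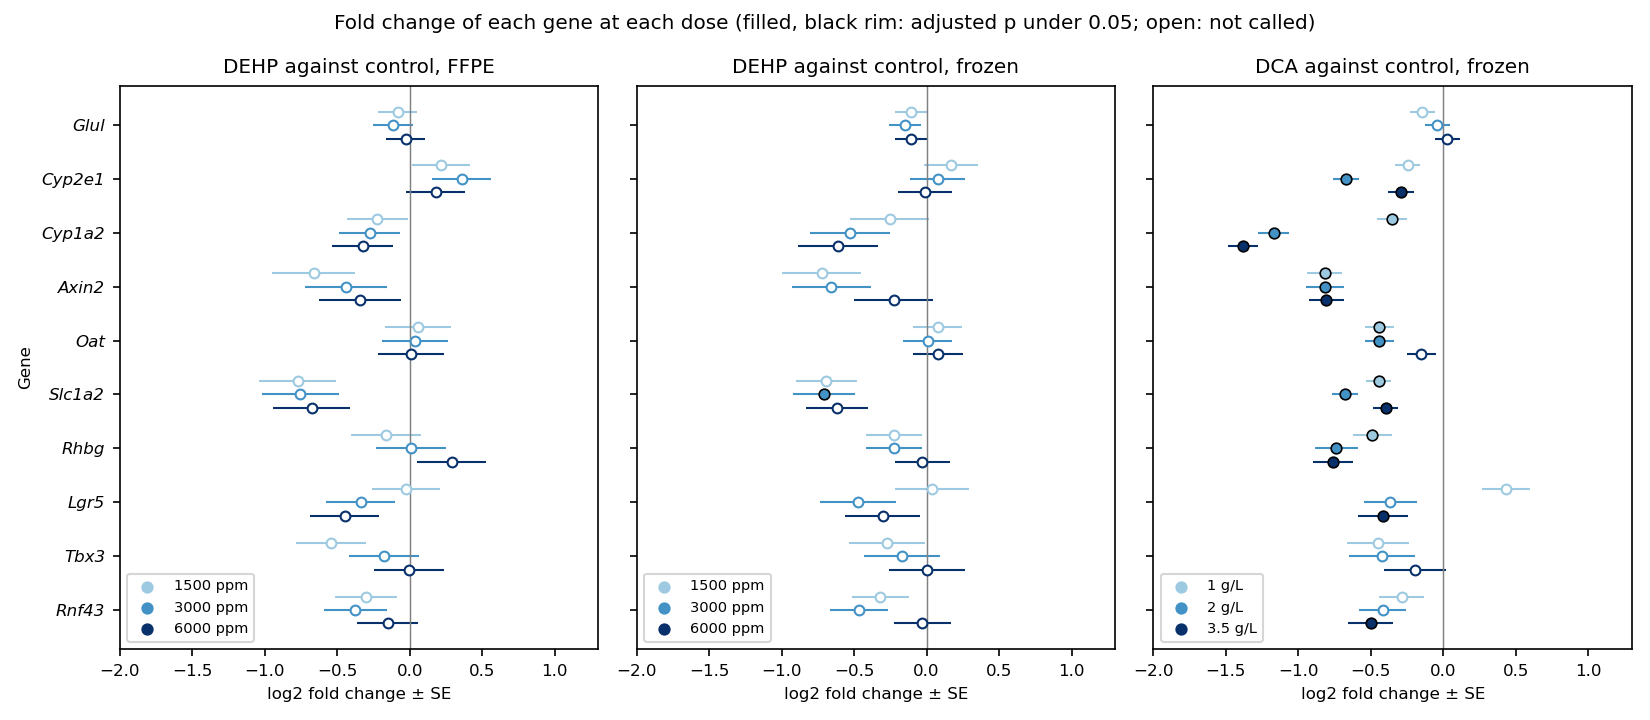
Log2 fold change ± SE of each gene against its own 0 dose, for DEHP in FFPE and frozen livers (n = 4 per dose) and DCA in frozen livers (n = 6 per dose). Filled points with a black rim have an adjusted p under 0.05, and open points do not. Slc1a2 lies left of 0 in all panels, and Cyp1a2 reaches -1.38 at 3.5 g/L DCA.

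Frozen livers of both studies entered one fit to set the effect of DEHP at 6000 ppm beside that of DCA at 3.5 g/L, relative to the controls of the same study. Their doses, routes and years differ, so the comparison is of these exposures only. The effects differed for 2 of the 10 genes (13.3% of all genes differed), both with a fold change nearer 0 under DEHP. The log2 fold change of Rhbg was -0.03 under DEHP and -0.76 under DCA, a difference of 0.74 ± 0.23 log2 units (adjusted p = 0.0271). That of Cyp1a2 was -0.61 under DEHP and -1.38 under DCA, a difference of 0.79 ± 0.27 log2 units (adjusted p = 0.0477). For the genes not called the differences ran between -0.21 ± 0.21 for Slc1a2 (adjusted p = 0.57) and 0.60 ± 0.27 for Axin2 (adjusted p = 0.14). Between 0 and 3 genes were called when 1 library was left out. The call of Cyp1a2 held in 14 of 40 such fits (adjusted p up to 0.128). It was lost without DEHP libraries 32A, 45C, 75A, 60A, 9A, 71A, 8C, 29B or 64C or DCA libraries 3 to 7, 50 to 53, 73, 75 to 77, 97, 99, 101 or 102, and without the filter on low counts (0.0605). Axin2 was called without 32A (0.0492) or 44A (0.0239). That of Rhbg held in 38 of 40, the exceptions being control 75A (adjusted p = 0.071) and 8C at 6000 ppm (0.0549), and was lost in the other raw count tables (0.0563).

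FFPE and frozen tissue of the same DEHP animals gave different levels for 5 of the 10 genes, in a fit with the animal as a block in which 64.2% of all genes differed. Axin2 averaged 9.27 ± 3.18 CPM in FFPE and 5.32 ± 1.83 CPM in frozen tissue (SD, n = 16 each), was higher in FFPE in 16 of 16 animals, by 0.80 ± 0.08 log2 units (adjusted p = 1.8e-08). Tbx3 averaged 35.7 ± 10.4 CPM in FFPE and 18.6 ± 5.00 CPM in frozen tissue, also higher in 16 of 16 (0.94 ± 0.07, adjusted p = 1.16e-10). Rnf43 was higher in FFPE in 14 of 16 animals (0.33 ± 0.05, adjusted p = 1.28e-05). Oat averaged 223 ± 51.3 CPM in FFPE and 328 ± 54.2 CPM in frozen tissue and was lower in FFPE in 16 of 16 (-0.58 ± 0.05, adjusted p = 1.26e-09), and Cyp2e1 was lower in 15 of 16 (-0.27 ± 0.04, adjusted p = 5.19e-06). Axin2, Tbx3 and Rnf43 thus stood higher and the enzymes Oat and Cyp2e1 lower in FFPE tissue. Glul (-0.08 ± 0.04, adjusted p = 0.0949), Slc1a2 (0.00 ± 0.04, adjusted p = 0.968) and Rhbg (adjusted p = 0.98) were not called, though Glul was called without 75A, 40A or 72B (0.0394, 0.0283 and 0.0477), by DESeq2 (0.0324), with its size factors (0.0422), without the filter (0.0219), in the other raw count tables (0.0383) and without 35A and 67C (0.0370). The difference between preparations in the effect of DEHP at 6000 ppm was called by edgeR for 0 of the 10 genes (0% of 14065 genes, 254 at an unadjusted p under 0.05, of which 1 was among the 10; DESeq2 called 0 of the 10 and 0 of all genes). The largest of these differences among the 10, FFPE minus frozen, was 0.31 ± 0.27 log2 units for Rhbg.

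In the DCA study most genes were lower in FFPE than in frozen tissue: 60.6% of all genes tested were called and the median log2 fold change over all genes was -1.54. Of the 10 genes 7 were called, all lower in FFPE: Glul, Cyp2e1, Cyp1a2, Axin2, Oat, Rhbg and Lgr5. DESeq2 also called Slc1a2 (adjusted p = 0.00609) and Rnf43 (0.0101), and the other raw count tables also called Rnf43 (0.0413). Without the filter on low counts Axin2 (0.169) and Lgr5 (0.0550) were not called, and without the Rn45s row Lgr5 was not (0.0517). Set against that median, Oat was at -0.72, Axin2 at -0.78, Rhbg at -0.81 and Cyp1a2 at -0.37 log2 units, while Glul stood at 0.51, Cyp2e1 at 0.13, Slc1a2 at 0.78, Rnf43 at 0.51, Tbx3 at 1.23 and Lgr5 at -0.07. In the DEHP study, where that median was 0.021, Oat (-0.60) again lay below it and Tbx3 (0.92) and Rnf43 (0.31) above it. Axin2 (0.78), Cyp2e1 (-0.29), Glul (-0.10), Cyp1a2 (0.09), Lgr5 (0.05) and Slc1a2 (-0.02) lay on the other side of it there. Rhbg (-0.02) again lay below it. Among animals whose FFPE libraries came from the run of the controls, 3 genes were called, and Glul (adjusted p = 0.149), Rhbg (0.196), Axin2 (0.359) and Lgr5 (0.149) were not. The call of Lgr5 held in 8 of 24 fits without 1 animal, being lost without 3, 4, 6, 49 to 51, 53, 73, 74, 76, 77 or 98 to 102 (adjusted p 0.0561 to 0.614). Without the animal block its log2 fold change was 0.060 (adjusted p = 0.93). The call of Axin2 was lost without animal 5, 6, 7 or 8, all controls (adjusted p 0.0669 to 0.83), and without the block (0.0605). Axin2 was at 0 counts in 6 of 6 FFPE livers at 1 g/L and in 5 of 6 at 2 g/L. At 1 g/L, 3 counts over the summed library totals of the group would be 0.298 CPM without TMM scaling. That is not the scale of the other CPM values, on which the 8 Lgr5 counts of the same group averaged 6.99 CPM. These libraries therefore do not show Axin2 to be absent.

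**Figure D4:**
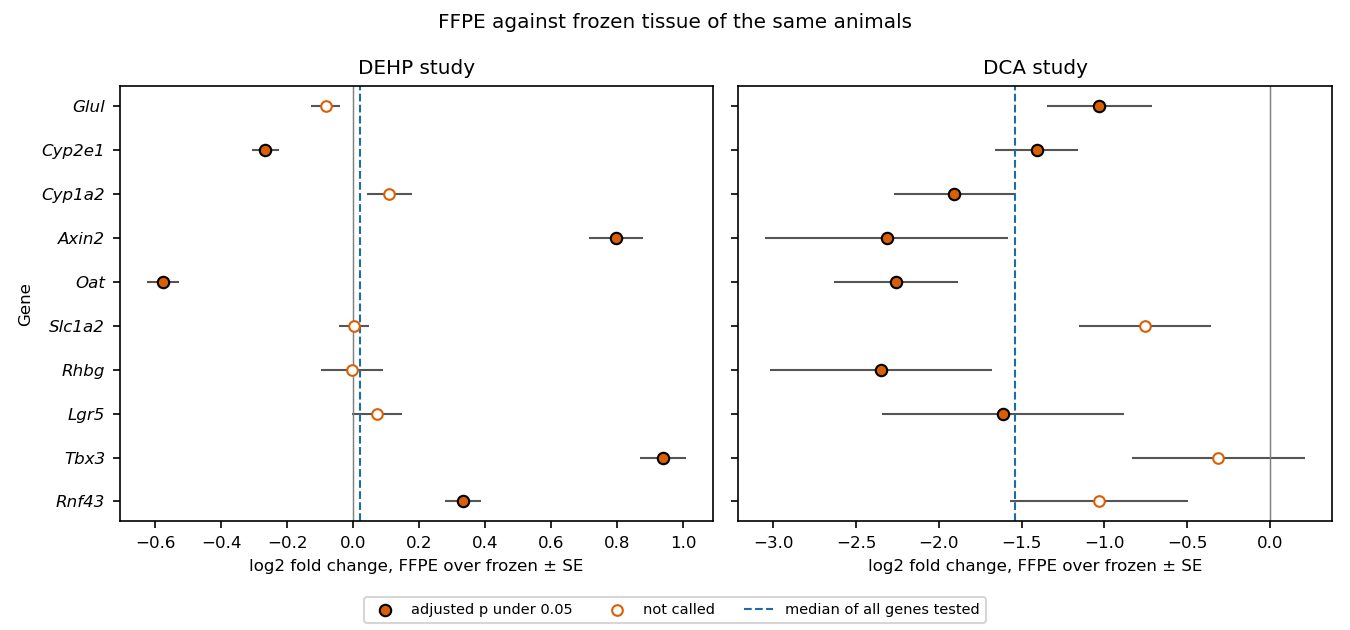
Log2 fold change ± SE, FFPE over frozen tissue of the same animals, in the DEHP study (n = 16 pairs) and the DCA study (n = 24 pairs). Filled points have an adjusted p under 0.05, and the dashed line is the median of all genes tested, 0.021 for DEHP and -1.54 for DCA. Tbx3 is the gene farthest to the right in both panels.

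Dose effects of DCA in FFPE tissue could hardly be measured. The test called 0 of 7 tested genes at 1 g/L (0.126% of all genes called), 2 g/L (0.335%) and 3.5 g/L (0.293%), with 0, 1 and 2 genes at an unadjusted p under 0.05 and 0, 0 and 0 by DESeq2. Axin2, Rhbg and Lgr5 had too few counts to be tested. Cyp1a2 had 146 to 186 CPM in the 6 FFPE controls, 22.1 to 204 CPM at 1 g/L, 0 to 107 CPM at 2 g/L and 0 to 85.9 CPM at 3.5 g/L, so that livers at 2 and 3.5 g/L lay below all controls there as in frozen tissue. Its log2 difference at 3.5 g/L was -2.32 ± 0.85 (adjusted p = 0.393), where the median over all genes was -0.68. The counts behind this are few, 98 over the 6 libraries at 3.5 g/L, against 5017 over those of the controls, and all libraries at 2 and 3.5 g/L were sequenced in another run than the controls. For a group at 0 counts at 3.5 g/L, the limit of 3 counts over the summed library totals is 1.60 CPM (counting error only). This limit is without TMM scaling, so it is not on the scale of the CPM values above.

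Within dose groups, levels of some genes varied together across frozen livers. Of 90 pairs (45 per study) correlated on log2 CPM after removing dose means, with permutations of livers within dose and Benjamini-Hochberg adjustment over the 90, 2 passed by Pearson's r and 2 by Spearman's rho. Tbx3 and Rnf43 correlated across 16 DEHP livers at r = 0.94 (p = 0.00046, adjusted p = 0.0207) and rho = 0.86 (p = 0.00068, adjusted p = 0.0306). Without the livers farthest from the median, 44A and 32A, r was 0.85 and its adjusted p 0.20, so the call rests on those livers. In DCA livers the same pair had r = 0.69 (permutation p = 0.00496, adjusted p = 0.11), with 0.96 within the 7 livers of lane 5 and -0.040 within the 9 of lane 4. Without the livers farthest from the median, 4 and 50, its r in DCA livers was 0.34 (adjusted p = 0.81). Lane 5 held liver 4, the lowest control for both genes. Cyp1a2 and Rhbg correlated across 24 DCA livers at r = 0.69 (permutation p = 6e-05, adjusted p = 0.0054) and rho = 0.70 (adjusted p = 0.0054). Their r was 0.73 (adjusted p = 0.027) without livers 8 and 99, 0.73 within lane 4 and 0.59 within lane 5. DEHP runs held too few livers for values within a run. Over all 90 pairs r was positive in 61, with a median of 0.15.

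**Figure D5:**
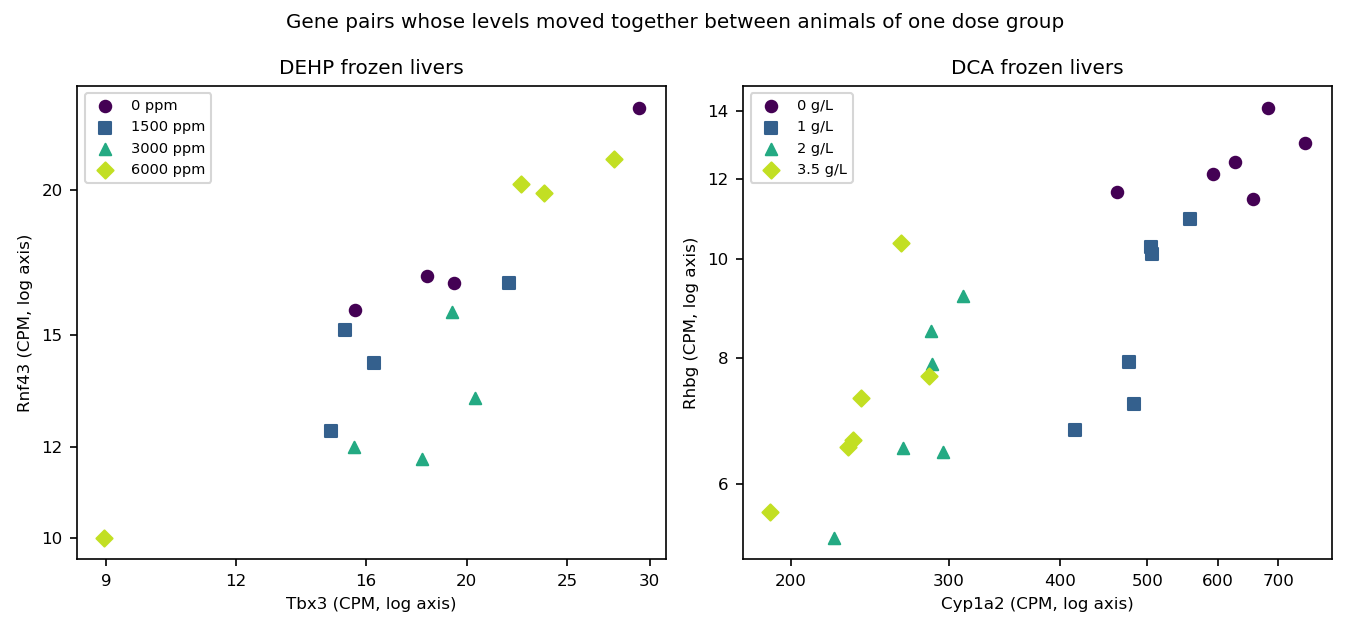
CPM of Rnf43 against Tbx3 in 16 DEHP frozen livers and of Rhbg against Cyp1a2 in 24 DCA frozen livers, both axes logarithmic, with a symbol per dose. The r values of 0.94 and 0.69 were computed after removing dose means, which the points still contain; liver 44A is the point at 8.95 CPM of Tbx3.

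Differences between animals were compared across preparations. Across 16 DEHP animals, after removing dose means, the 10 genes had a median r of 0.725, against 0.346 over 13445 genes tested in both preparations. Of the 10, 7 reached an r of at least 0.71, as did 17.2% of all those genes. That cutoff is the lowest r among those of the 10 that were called, so the count of 7 was fixed by the calls. These 7 were the ones called (permutation within dose, adjusted over 10): Cyp2e1 at r = 0.95 (p = 1e-05, the smallest that 100000 permutations can give), Slc1a2 at 0.89 (adjusted p = 0.00185), Rnf43 at 0.80 (0.0268), Oat at 0.75 (0.0218), Tbx3 at 0.73 (0.0218), Cyp1a2 at 0.72 (0.0182) and Axin2 at 0.71 (0.0341). Spearman's rho passed for 6 of them, between 0.63 for Tbx3 and 0.90 for Cyp2e1, and was 0.51 for Axin2 (adjusted p = 0.14). Leaving out the animals farthest from the median gave an r of 0.91 for Cyp2e1, 0.87 for Slc1a2 and 0.69 for Tbx3, between 0.57 and 0.58 for Rnf43, Oat and Cyp1a2 and 0.40 for Axin2. Lgr5 (r = 0.66, rho = 0.49, adjusted p = 0.095), Glul (r = 0.18, rho = 0.29, adjusted p = 0.47) and Rhbg (r = 0.11, rho = 0.16, adjusted p = 0.72) were not called. Without animals 35A and 67C, r was between 0.73 and 0.96 for the 7 called genes and 0.38 for Rhbg. With doses pooled, Glul was at 563 ± 47.7 CPM over the 16 frozen livers, Rhbg at 4.34 ± 0.753 CPM and Oat at 328 ± 54.2 CPM (SD). Whether this spread bears on their r was not tested.

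By likeness, the genes closest to 3 of the 10 were sought among 8881 genes whose log2 CPM averaged 2 or more, by the smaller of the Pearson correlations over 16 DEHP and 24 DCA frozen livers with dose means removed. For Glul they were Ttc27 (r = 0.67 in DEHP and 0.63 in DCA livers), Mtx1 (0.56 and 0.58) and Usp39 (0.56 and 0.63). For Cyp2e1 they were Cyp2c54 (0.69 and 0.54), the unnamed locus 0610005C13Rik (0.54 and 0.55) and Vamp8 (0.53 and 0.57), and for Axin2 they were Git2 (0.72 and 0.62), Gtpbp1 (0.58 and 0.62) and Pcdh1 (0.63 and 0.58). None of the 10 was among them. The livers of a study share runs and depth, and no p was computed for these values.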

How the data were processed

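Stranded total RNA libraries, depleted of ribosomal RNA, were made from FFPE and frozen liver of the same mice, 80 libraries in all. The deposited tables hold the authors' RSEM expected counts per gene, FPKM values, and further raw tables of estimated counts with matching RPKM values, all with replicates kept apart. CASAVA, STAR 2.4, RSEM and the mm10 build are named per the submitters' processing notes. Expected counts were rounded and tested with edgeR 4.0.16 (quasi-likelihood test, R 4.3.3, limma 3.58.1) after filterByExpr with a minimum count of 10 and TMM scaling, over all genes, with Benjamini-Hochberg adjustment and a threshold of 0.05. SEs are the log2 fold change divided by the square root of F. The 4 dose groups of a chemical and preparation shared a fit, and FFPE against frozen had the animal as a block, since both libraries come from the same animal. The pairing was checked by correlating deviations from dose means: among animals of the same dose, the best match was the own frozen library in 14 of 16 DEHP animals (median r 0.545, 9327 genes) and in 15 of 24 DCA animals (median r 0.0477, 4510 genes). CPM values are counts scaled by TMM within a chemical and preparation (across both preparations where these are compared), and correlations used log2 CPM with a prior count of 2.

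The 10 genes and all gene lists were chosen with earlier results of these data known, so no count of them is independent support. The text names the 10 genes, the 2 called genes of smallest adjusted p in every other list at DEHP 6000 ppm and DCA 3.5 g/L in frozen liver, a set of Wnt, AhR and nitrogen genes always named, and the 3 genes most alike to Glul, Cyp2e1 and Axin2. The comparison of 3.5 with 2 g/L DCA was added after the values were seen. In the edgeR fits by dose, p-values weigh an effect against the spread between animals. In fits with the animal as a block, they weigh it against the spread of differences within animals. The SEs come from the same fits and include that spread. Only the limits of 3 counts over summed library totals cover counting error alone. Fits were tested on simulated data. Alternatives were DESeq2 1.42.0, its size factors, no filter, the other raw count tables, RPKM for FPKM, smaller fits, sequencing run as a term and each library left out.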

Additional observations from a re-analysis of the deposited data

Results flagged for a closer look

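Among 132 groups of 4 or 6 livers looked at, 1 liver stood far from the rest in 6, by a gap past the critical value of Dixon's test, which is set so that chance alone passes it in about 1 in 20 groups. In frozen DEHP livers Cyp1a2 reached 243.2 CPM in animal 3A at 1500 ppm, with the next liver at 137.7 CPM, and 188.5 CPM in animal 35A at 3000 ppm, with the next at 116.3 CPM. Slc1a2 reached 70.81 CPM in animal 71A at 3000 ppm, with the next at 54.22 CPM. Rnf43 was at 10.01 CPM in animal 44A at 6000 ppm, where the next lowest liver had 19.9 CPM. In control animal 32A Rnf43 was the highest of its group in both preparations, at 28.61 CPM in FFPE tissue (next 19.65 CPM) and 23.59 CPM in frozen tissue (next 16.86 CPM).

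The effects of the chemicals at their top doses were called different by a test of the difference itself for 2 genes, where 13.3% of all genes were called. These were Cyp1a2, by 0.79 log2 units (DEHP minus DCA, edgeR adjusted p = 0.0477), and Rhbg, by 0.74 log2 units (0.0271). The Cyp1a2 call held in only 14 of 40 fits without 1 library and was lost without the filter on low counts (0.0605). That of Rhbg held in 38 of 40 and was lost in the other raw count tables (0.0563).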

How the results depend on the processing

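Outside single libraries, these counts of the 10 genes called moved by over 1.5 times. DESeq2 called 1 at DEHP 1500 and 6000 ppm in frozen and at 1500 and 3000 ppm in FFPE liver, in place of 0. With only the groups compared, 1 was called at DEHP 1500 ppm (frozen) and 1 at DCA 3.5 against 2 g/L. With sequencing run as a term, 0 were called at DEHP 3000 ppm. Within run W48315, 2 were called at DCA 1 g/L. Lane 4 alone, or leaving out lane 3, gave 1 at DCA 3.5 against 2 g/L. Among DCA animals with FFPE libraries in the run of the controls, 3 differed between preparations. For DEHP minus DCA, 1 was called without a filter and 1 in the other raw count tables. Without the 2 livers farthest from the median, 1 correlated pair passed. Smaller changes were 6 at DCA 1 g/L (DESeq2, other raw tables), 7 at 2 g/L (DESeq2), 6 at 3.5 g/L (no filter, other raw tables, groups compared alone, without lane 3), 3 at 3.5 against 2 g/L (DESeq2, run W48315), 7 for the DCA slope (DESeq2, its size factors), 6 for DEHP preparations (5 settings) and 5 to 9 for DCA preparations. RPKM kept the rank of 13 of 20 levels. Without the replicate block, 5 genes differed between preparations in DEHP and 5 in DCA livers, and 0 differed in the DEHP effect; Lgr5 in DCA livers turned to 0.060 (adjusted p = 0.93). The cause of these changes was not tested.

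Leaving out 1 library at a time gave 0 to 1, 0 to 2 and 0 to 1 genes at DEHP 1500, 3000 and 6000 ppm in frozen liver, 0 to 1, 0 to 0 and 0 to 1 in FFPE liver, 3 to 6, 6 to 8 and 6 to 7 at DCA 1, 2 and 3.5 g/L in frozen liver and 0 at each DCA dose in FFPE liver. It gave 1 to 3 at DCA 3.5 against 2 g/L, 0 to 1 for either DEHP slope, 6 to 7 for the DCA slope, 5 to 6 and 5 to 7 for preparations in DEHP and DCA livers, 0 for the difference in DEHP effect and 0 to 3 for DEHP minus DCA. Of the alternatives planned, 4582 fold changes of single genes kept their direction and side of the threshold, 94 lost a call and 58 gained one. Another 158 changed direction without a call in either fit, and 1 changed direction with a call in 1 of the fits. Of those added later, 136 were unchanged in this sense, 13 lost a call, 4 gained one and 5 changed direction without a call in either fit. In DCA FFPE liver, with 109292 to 8434617 counts a library, depth limits what can be called.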
